A study of Mus musculus with 12 samples.

Results

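The genes described here encode the subunits of the proteasome, its assembly chaperones and its activators and inhibitor. They were taken by symbol, as all genes named Psma to Psmg followed by a number, which gave 47 of the 17419 genes in the table. A mean of at least 100 reads over the 12 libraries was reached by 43 of the 47, against 9065 of all genes, and all measures of new RNA use these. The cells were NIH-3T3, an immortalised wild-type mouse fibroblast line, labelled with 800 µM 4-thiouridine (4sU), a uridine analogue that is built into RNA as it is made. In SLAM-seq, iodoacetamide alters the 4sU in RNA, which sequencing then reads as C, and the new-to-total ratio (NTR) is the estimated share of a transcript pool that was made since 4sU was added. The 6 groups were cells without 4sU (no4sU) and cells labelled for 15, 30, 60, 90 or 120 min, with 2 replicates, A and B, in each. All groups were wild type and of the same line, and nothing in the labels says whether A and B were separate cultures, so the p-values given measure only the spread between these samples, which may be technical. The title of the series gives the aim as learning how labelling time biases quantification, so each duration was compared with no4sU and the longest with the shortest.

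The proteasome degrades proteins that carry ubiquitin chains. Its barrel-shaped core particle is made of outer alpha rings, which form the gate, and inner beta rings, which hold the proteolytic sites. The regulatory particle caps the barrel: its base is a ring of ATPases that unfolds the substrate, and its lid removes the ubiquitin chain. Assembly chaperones bind precursors of either particle and are not part of the finished complex, and other activators can take the place of the regulatory particle.

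Between 9917026 and 13739380 reads were counted per library, and the 47 genes together took between 0.672% and 0.722% of them. CPM is the read count per M reads, of the unscaled library for cell type markers and of the TMM-scaled library elsewhere unless stated. Fibroblast genes were high in all libraries (Col1a2 at least 1878 CPM, Vim at least 3932 CPM). The blood, epithelial and endothelial markers Ptprc, Cdh1, Krt8, Pecam1 and Kdr were at most 0.381 CPM. Cd68, Cdh5, Map2 and Tubb3, also on those lists or on that of neurons, were between 0.658 and 12.97 CPM. The no4sU replicate A library stood above its partner for these genes: 38 of the 43 were higher in A than in B, with a median log2 difference of 0.11, against 0.0011 for all genes. In RNA from whole cultures, fewer cells of a type and less RNA per cell cannot be told apart.

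Transcripts of the 31 genes of the rings, base and lid taken by symbol were abundant and within a range of 4.72-fold per length, while those of chaperones, activators and the inducible subunit were mostly much lower. Over the 12 libraries, the 31 measured genes of the alpha ring, the standard beta ring, the base and the lid ran from 47.5 (Psma2, an alpha ring subunit) to 224 CPM per kilobase (Psmb2, a beta ring subunit without proteolytic activity of its own). Their median was 107 CPM per kilobase, and the median of all genes with at least 100 reads was 13.96. By role the medians were 117 CPM per kilobase in the alpha ring, 137 in the standard beta ring, 108 in the base ATPases, 125 in the other base subunits and 86.4 in the lid. The ranges of these 5 roles overlapped one another. The other 12 genes ran from 6.87 (Psmb10) to 74.97 CPM per kilobase (Psme3), with a median of 17.4. These levels use the gene length in the authors' table, which was that of the longest annotated transcript for 99% of 17376 genes. With the length of the principal coding transcript, an alternative chosen after seeing the data, Psma2 and Psmb2 were at the same values, and 7 of the 43 genes were over 1.5 times higher (Psma7, Psmb3, Psmb7, Psmc2, Psmd4, Psmg3 and Psme1), the largest shift among beta subunits being that of Psmb7 from 60.6 to 149 CPM per kilobase.

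The catalytic subunits of the standard core particle were all well expressed. Psmb5, which carries the chymotrypsin-like site, was at 107 CPM per kilobase (lowest library 96.8, highest 123). Psmb6, with the caspase-like site, was at 143 CPM per kilobase (lowest library 132, highest 156). Psmb7, with the trypsin-like site, was at 60.6 CPM per kilobase (lowest library 56.7, highest 65.3) on the same length basis. Of their inducible counterparts, which replace them in immunoproteasomes, Psmb8 and Psmb9 were near or below detection and were not tested. Psmb8 had 1 read in no4sU replicate B, 1 in 90 min replicate B and 0 in the other 10 libraries, and Psmb9 had between 0 and 4 reads per library. A count of 0 allows up to 3 reads, which is between 0.218 and 0.303 CPM in these libraries without TMM scaling and covers counting error only. Psmb10, the third inducible subunit, was expressed in every library, between 7.38 and 10.9 CPM or 6.87 CPM per kilobase (lowest library 5.63, highest 8.28). Psme1 and Psme2, the partners of the activator that often accompanies immunoproteasomes, were at 12.5 and 33.9 CPM per kilobase, and Psme3, the related nuclear activator, at 74.97. Psme2 has a near-identical copy in the table, Psme2b, at 1.36 to 2.59 CPM, so the values of both are uncertain.

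**Figure D1:**
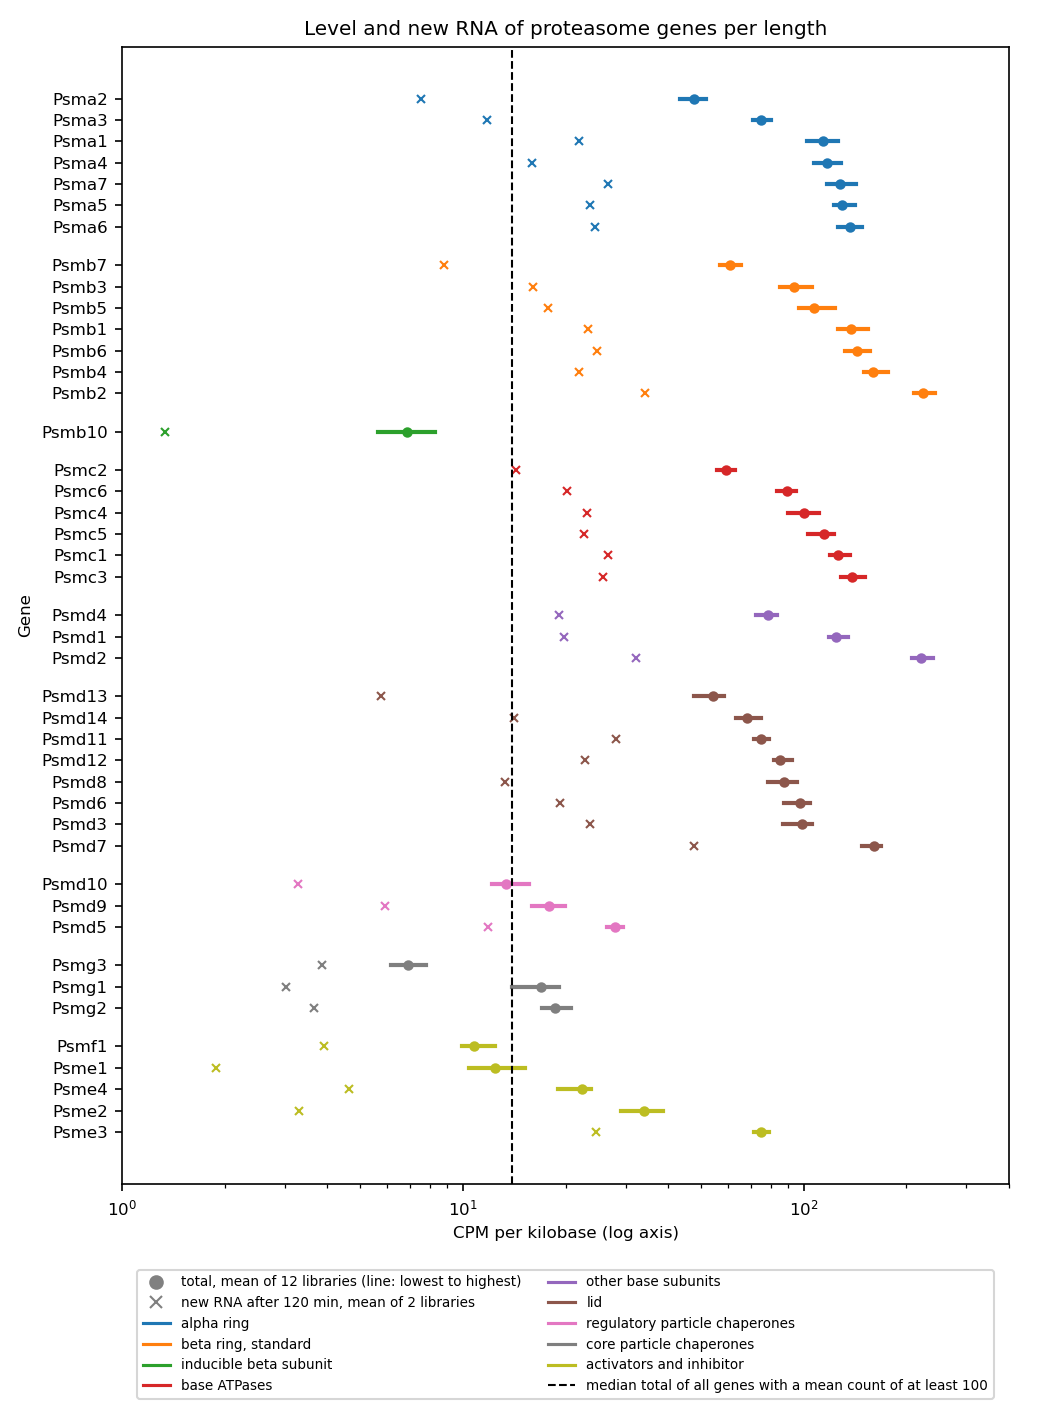
Level of each measured proteasome gene per kilobase of the deposited gene length (horizontal axis, CPM per kilobase, log axis), grouped by role. Dots are means of 12 libraries with a line from the lowest to the highest library, crosses are the new part of the RNA after 120 min (NTR times CPM, mean of 2 libraries), and the dashed line is the median of all genes, 13.96. All subunits of the rings, base and lid lie to the right of that line, and Psmb10, Psmg3, Psmf1, Psme1 and Psmd10 lie to its left.

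New RNA made up a small share of most proteasome transcripts. After 120 min the median NTR of the 43 genes was 17.3% in replicate A and 18.1% in B (mean 17.7% ± 0.58, SD, n = 2), against 35.8% and 35.0% for all 9065 genes. Of the 43, 40 had a mean NTR below the median of all genes (35.4%), and for 37 the authors' 90% interval lay below it in both libraries. The interval lay above it in both libraries for 3: Psmd11, Psmd5 and Psmg3. The range was narrow for most of the complex, with 27 of 43 genes between 10 and 20% and 6 over 30% (Psmd11, Psmd5, Psmd9, Psmg3, Psme3 and Psmf1). The 31 subunits of the rings, base and lid had a median of 17.005% and a median percentile of 17.5 among all genes, and the 12 others a median of 21.98% and a median percentile of 27.9, with no test of that difference.

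Within the core particle, the alpha ring spanned 12.7% (Psma4) to 18.8% (Psma7) and the standard beta ring 12.9% (Psmb4) to 15.97% (Psmb3). All 14 genes of both rings were within 6.1 percentage points of each other. Psma4 had an NTR of 12.8% and 12.7% in A and B, and Psma7 of 18.9% and 18.8%. Psmb4 had 12.7% and 13.0%, and Psmb3 14.8% and 17.1%. The replicates of Psma4 and Psma7 did not overlap each other, nor did those of Psmb4 and Psmb3. Each pair was chosen as the lowest and highest of its ring, so a gap follows in part from that choice. The 90% intervals of Psmb4 (11.3 to 14.3%) and Psmb3 (13.1 to 16.8%) overlapped in A but not in B. Those of Psma4 and Psma7 overlapped in neither. The catalytic subunits lay close together: Psmb5 had 14.6% and 14.4%, Psmb6 16.5% and 15.4% and Psmb7 15.02% and 12.5%, with the replicates of Psmb7 enclosing both values of Psmb5. The inducible Psmb10, which had a mean of 103 reads, had 11.8% and 22.4%, and its 90% intervals (6.83 to 20.6% and 15.6 to 31.7%) were wide, that of A taking in the means of all 14 ring genes.

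By role, the median NTR at 120 min was 16.7% in the alpha ring and 15.1% in the standard beta ring, 20.5% in the base ATPases, 15.0% in the other base subunits and 21.1% in the lid. It was 30.8% in the 3 base chaperones, 21.2% in the 3 core particle chaperones and 19.8% in the 5 activators and inhibitor. Every role had a median below that of all genes.

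The regulatory particle was more varied than the rings. The 6 base ATPases ran from 17.1% (Psmc3, with 16.7% and 17.5% in A and B) to 23.2% (Psmc2, with 22.8% and 23.5%). Among the other base subunits, Psmd2, the large scaffold that docks ubiquitin shuttle factors, had 13.9% and 13.3%, and Psmd4, a ubiquitin receptor, had 21.9% and 24.2%. The lid held both ends of the range of the 31 genes of the rings, base and lid taken by symbol. Psmd13, a scaffold subunit of the lid encoded at chr7:140881968-140898643 (GRCm38, GENCODE M21, as for all gene positions given), had 9.66% and 10.4% and stood at percentile 4.19 of all genes. Psmd11, the lid subunit that clamps onto the alpha ring, had 38.3% and 38.6% and stood at percentile 54.2. The next highest lid subunit, Psmd7, the partner of the deubiquitinase Psmd14, had 29.02% and 28.1%, and its 90% intervals did not meet those of Psmd11.

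The highest NTR values of the 43 were those of assembly chaperones. Psmg3, a chaperone of alpha ring assembly encoded at chr5:139823592-139826885, had 50.01% and 60.9% in A and B, with 90% intervals of 41.3 to 59.3% and 51.3 to 70.4%. Psmg1, another chaperone of the same step, had 17.1% and 15.9%. These are the highest and the lowest of the 3 measured core particle chaperones. Psmd5, a chaperone of the base encoded at chr2:34849734-34874968, had 41.3% and 43.9%, and Psmd10, the base chaperone also known as gankyrin, had 21.3% and 24.1%. Psme3, the nuclear activator, had 36.4% and 31.8%, while Psme2, encoded at chr14:55587441-55591113, had 10.1% and 8.0%, the lowest mean of the 43. In A Psmd13 was lower, at 9.66%, and the 90% intervals of Psme2 and Psmd13 overlapped in each library. Psme1, the partner of Psme2, had 12.9% and 12.8%. The 90% intervals of Psme1 and Psme2 overlapped in each library.

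**Figure D2:**
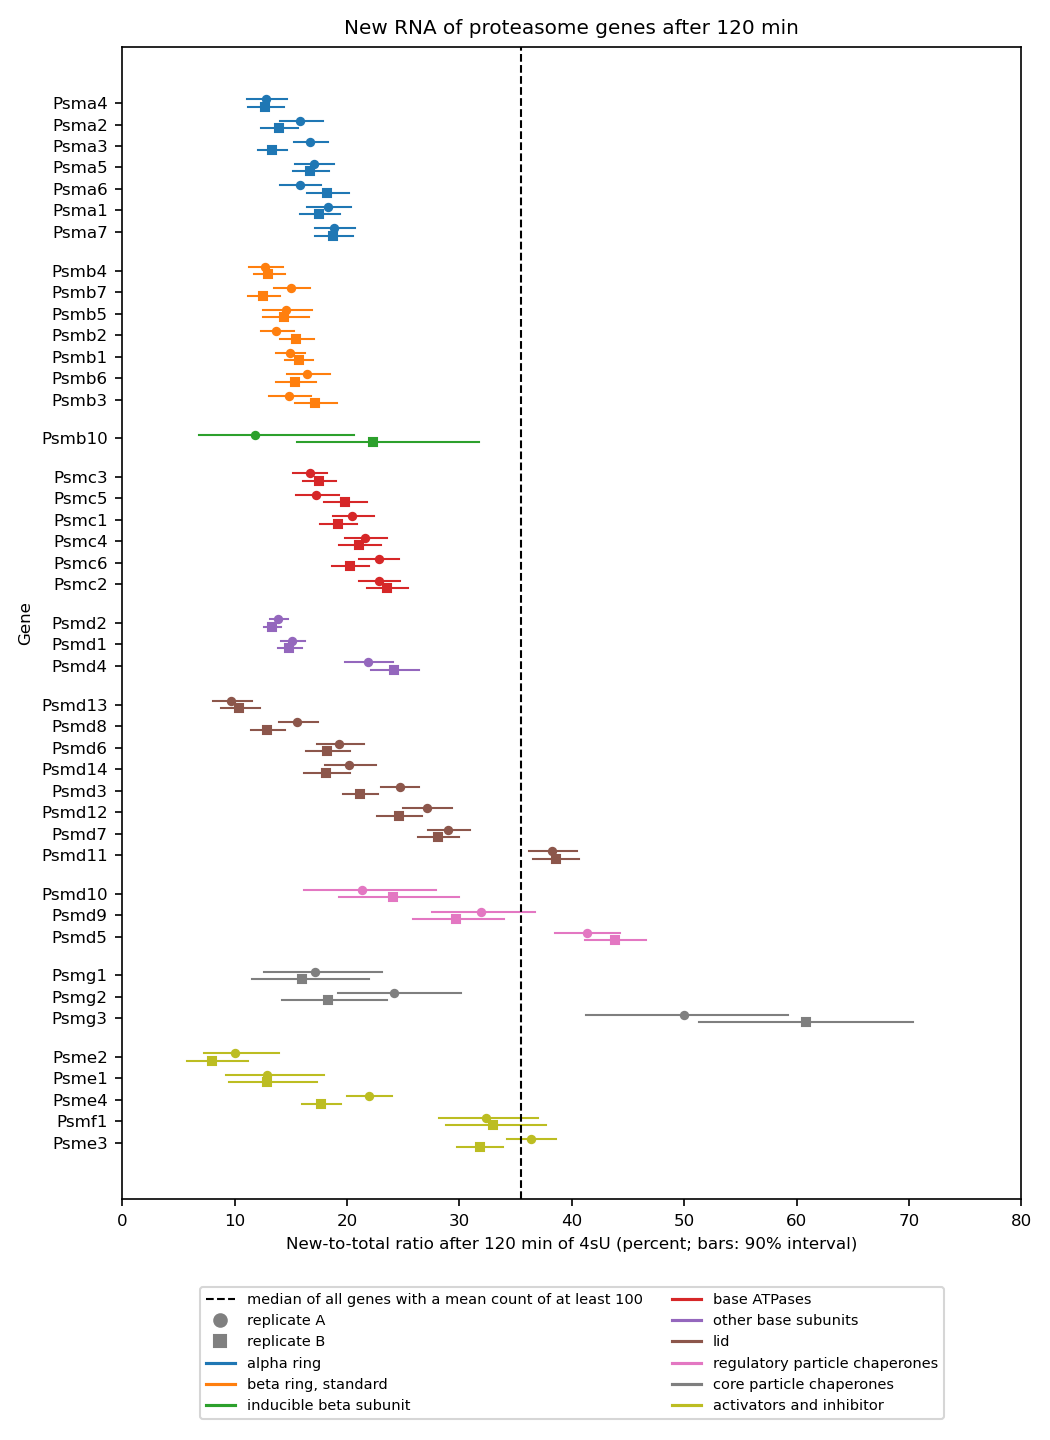
New-to-total ratio of the 43 measured proteasome genes after 120 min of 4sU (horizontal axis, percent) for replicates A (circles) and B (squares), with the authors' 90% intervals as bars, grouped by role. The dashed line is the median of all genes, 35.4%, and the intervals of Psmd11, Psmd5 and Psmg3 lie to its right in both libraries.

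The median ratio was higher at each longer labelling time. The median NTR of the 43 genes was 0.595% ± 0.276 after 15 min, 2.775% ± 0.0212 after 30 min, 7.935% ± 0.46 after 60 min and 12.8% ± 0.587 after 90 min (SD, n = 2), and that of all genes 1.005, 5.205, 15.5 and 24.4%. Psmb5 had 0 and 0.89% (15 min), 3.34 and 1.96% (30 min), 7.1 and 6.71% (60 min), 13.04 and 11.5% (90 min) and 14.6 and 14.4% (120 min) in A and B. Psmd11 had 1.68 and 0.89% (15 min), 5.0 and 5.84% (30 min), 16.2 and 15.9% (60 min), 26.3 and 23.4% (90 min) and 38.3 and 38.6% (120 min). From 30 min on, both replicates of Psmd11 were above both of Psmb5. Psmg3 had 5.06 and 0.41% (15 min), 9.6 and 11.9% (30 min), 28.7 and 22.8% (60 min), 41.9 and 39.9% (90 min) and 50.01 and 60.9% (120 min), and Psme2 had 1.0 and 0.81% (15 min), 2.25 and 3.8% (30 min), 3.02 and 4.65% (60 min), 5.85 and 3.42% (90 min) and 10.1 and 8.0% (120 min). The order of these 4 genes was the same at 60, 90 and 120 min. At 15 min most values were too small to rank: an NTR above 1% was reached by 15 of the 43 genes in replicate A and by 2 in B.

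**Figure D3:**
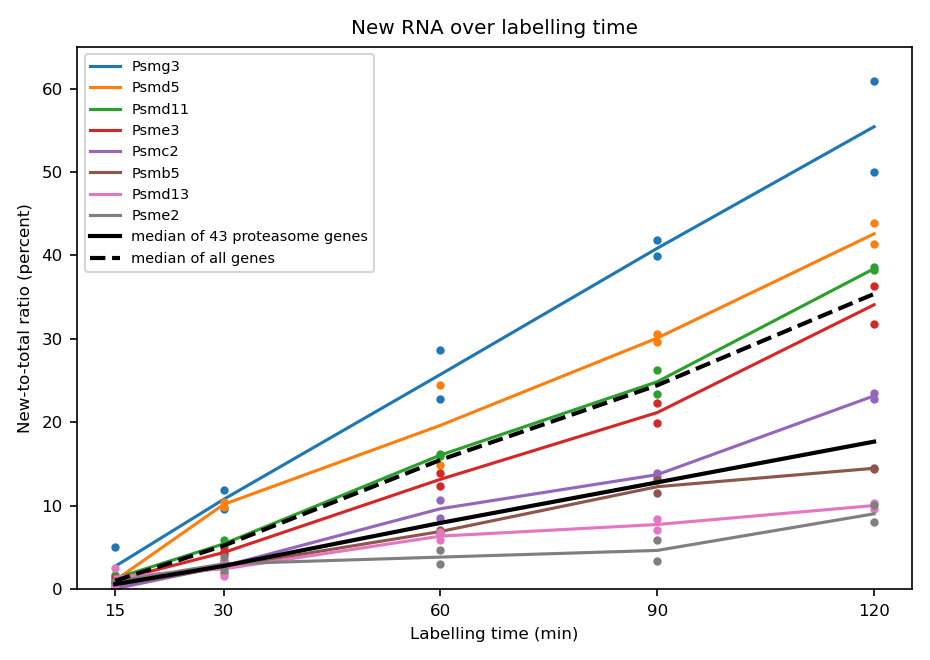
New-to-total ratio (vertical axis, percent) against labelling time (horizontal axis, min) for 8 proteasome genes, with lines through the means and dots for the 2 libraries of each time. The solid black line is the median of the 43 measured proteasome genes and the dashed black line that of all genes; they end at 17.7% and 35.4%.

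Expressed as an apparent half-life, the time at which -ln(1-NTR) would reach ln 2 at a constant rate, the median of the 43 genes was 504 ± 30.4 min after 60 min of labelling, 456 ± 22.4 after 90 min and 428 ± 15.5 after 120 min (SD, n = 2), and that of all genes 247, 224 and 198 min. The same transcripts thus gave shorter values from longer labelling. At 120 min Psmd13 had an apparent half-life of 789 ± 42.3 min, Psma4 of 611 ± 4.73 and Psmb5 of 532 ± 4.21. Psmc2 had 316 ± 8.16 min, Psme3 201 ± 23.6, Psmd11 172 ± 1.3, Psmd5 150.03 ± 8.42 and Psmg3 104 ± 22.1. At 60 min the value of Psmd11 was 237 ± 2.63 and that of Psmd13 638 ± 68.96 min, so Psmd11 was shorter at 120 min, and Psmd13 was not. These values take the loss of RNA as the only term, with growth of the cells and the early lag of labelling in it.

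The change of the apparent loss rate between 60 and 120 min was tested with limma on the log2 rate of 8606 genes, of which 27.8% passed at an adjusted p below 0.05, with 27.1% higher and 0.616% lower at 120 min. Of the 43 proteasome genes 1 passed, Psmc4, a base ATPase, and 7 had an unadjusted p below 0.05. The median log2 difference of the 43 was 0.29, against 0.41 for all genes. Psmc4 had an NTR of 8.13% and 7.37% at 60 min and of 21.6% and 21.1% at 120 min, and its rate rose by 0.58 ± 0.15 (log2, SE, limma adjusted p = 0.0383). Psmd11 differed by 0.47 ± 0.14 (limma adjusted p = 0.0554) and Psme3 by 0.56 ± 0.17 (limma adjusted p = 0.0509), both short of the threshold. Among the 34 proteasome genes with a mean of at least 1000 reads, 8 passed (23.5%) when only such genes were tested, as did 47.4% of all 2664 such genes. In fits without 120 min replicate A or without 120 min replicate B, the call of Psmc4 was not kept, nor was that of any other gene. The median log2 difference of the 43 was then 0.21 and 0.29, against 0.39 and 0.42 for all genes. Without 60 min replicate A or B it was 0.22 and 0.31, against 0.38 and 0.43 for all genes.

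In edgeR's quasi-likelihood test with Benjamini-Hochberg adjustment over 11564 genes, 7 of the 45 tested proteasome genes passed at 120 against 15 min, all of them higher: Psma4, Psma7, Psmb1 and Psmb5 of the core particle, Psmc3 and Psmd2 of the base, and the activator subunit Psme1. Over all genes 19.3% passed, 7.93% higher and 11.3% lower. The share of proteasome genes that passed in either direction, 15.6%, was near the 19.3% of all genes. As none was lower, the share called higher was also 15.6%, above the 7.93% of all genes, with no test of that difference. The median log2 fold change of the 45 genes was 0.14 against 0.0057 for all genes, and it was above 0 for 41 of them. Both 120 min libraries were above both 15 min libraries for 41 of 45 genes, against 33.3% of all genes, and below them for 2, Psmd11 and Psmg2, against 32.7%. For Psmd11 that separation was within the rounding of its counts. By role the median log2 fold change was 0.15 in the alpha ring, 0.14 in the standard beta ring, 0.15 in the base ATPases, 0.14 in the other base subunits and 0.12 in the lid, and 0.13, 0.090 and 0.15 in the base chaperones, the core particle chaperones and the activators and inhibitor.

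Psmb5 was counted at 109.8 and 92.2 CPM without 4sU, 87.3 and 90.7 (15 min), 91.3 and 87.02 (30 min), 91.5 and 94.2 (60 min), 95.6 and 95.3 (90 min) and 109 and 111 (120 min), A before B. The 120 min libraries were the highest of the labelled ones, and no4sU replicate A lay between them (log2 fold change 0.31 ± 0.072 (SE), adjusted p = 0.00585, edgeR). Other core particle genes that rose were Psmb1, a beta ring subunit without a proteolytic site, and Psma7, of the alpha ring. Psmb1 was at 290.5 and 267 CPM without 4sU, 248 and 261 (15 min), 255 and 253 (30 min), 261 and 266 (60 min), 275 and 268 (90 min) and 294 and 304 (120 min) (log2 fold change 0.23 ± 0.054 (SE), adjusted p = 0.00593, edgeR). Psma7 was at 202 and 187 CPM without 4sU, 177 and 188 (15 min), 181 and 184 (30 min), 188 and 188 (60 min), 198 and 196 (90 min) and 214 and 215 (120 min) (log2 fold change 0.23 ± 0.056 (SE), adjusted p = 0.00728, edgeR). In both genes the 120 min libraries were above all other 10. Psma4, at 131 and 125 CPM at 15 min and 142 and 150.1 at 120 min, rose with log2 fold change 0.19 ± 0.060 (SE), adjusted p = 0.0304 (edgeR).

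In the regulatory particle, Psmc3 was at 252 and 238 CPM without 4sU, 234 and 247 (15 min), 235 and 246 (30 min), 262 and 254 (60 min), 246 and 268 (90 min) and 275 and 275 (120 min) (log2 fold change 0.19 ± 0.056 (SE), adjusted p = 0.0212, edgeR). Psmd2, the most abundant of the 47 transcripts in CPM, was at 653 and 631 CPM without 4sU, 629 and 646 (15 min), 625 and 653 (30 min), 689 and 631 (60 min), 687 and 675 (90 min) and 721 and 694 (120 min) (log2 fold change 0.15 ± 0.052 (SE), adjusted p = 0.0487, edgeR). Both 120 min libraries of Psmc3 and of Psmd2 were above the other 10. None of the 8 lid genes taken by symbol passed, and they ran from -0.037 (Psmd11) to 0.15 (Psmd14). Psme1 had the largest log2 fold change of those that passed and a low level, at 27.3 and 23.5 CPM without 4sU, 22.3 and 20.96 (15 min), 20.6 and 24.9 (30 min), 25.5 and 21.7 (60 min), 27.7 and 23.9 (90 min) and 27.96 and 30.3 (120 min) (log2 fold change 0.43 ± 0.12 (SE), adjusted p = 0.0129, edgeR), and its 120 min libraries were above all others. Psme2, its partner, was at 31.6 and 32.5 CPM at 15 min and 33.6 and 37.2 at 120 min and did not pass (log2 fold change 0.15 ± 0.094 (SE), adjusted p = 0.286, edgeR).

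Psmd11, with the highest NTR of the 31 genes of the rings, base and lid, was at 221 and 213 CPM without 4sU, 220.01 and 227 (15 min), 227 and 235 (30 min), 219.5 and 222 (60 min), 233 and 225 (90 min) and 220.0 and 216 (120 min). It did not pass (log2 fold change -0.037 ± 0.052 (SE), adjusted p = 0.656, edgeR), and neither 120 min library was the lowest of the 12. Its replicate A libraries at 120 min (220.003 CPM) and 15 min (220.012 CPM) were tied within the rounding of the counts. Psmg3 was at 17 and 15.7 CPM without 4sU, 15.9 and 15.7 (15 min), 17.1 and 15.7 (30 min), 18.7 and 14.8 (60 min), 17.8 and 16.4 (90 min) and 17 and 16.4 (120 min) and did not pass (log2 fold change 0.078 ± 0.12 (SE), adjusted p = 0.685, edgeR). Its 6 groups all lay between 14.8 and 18.7 CPM, and those of 15 and 120 min were next to each other without overlap.

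**Figure D4:**
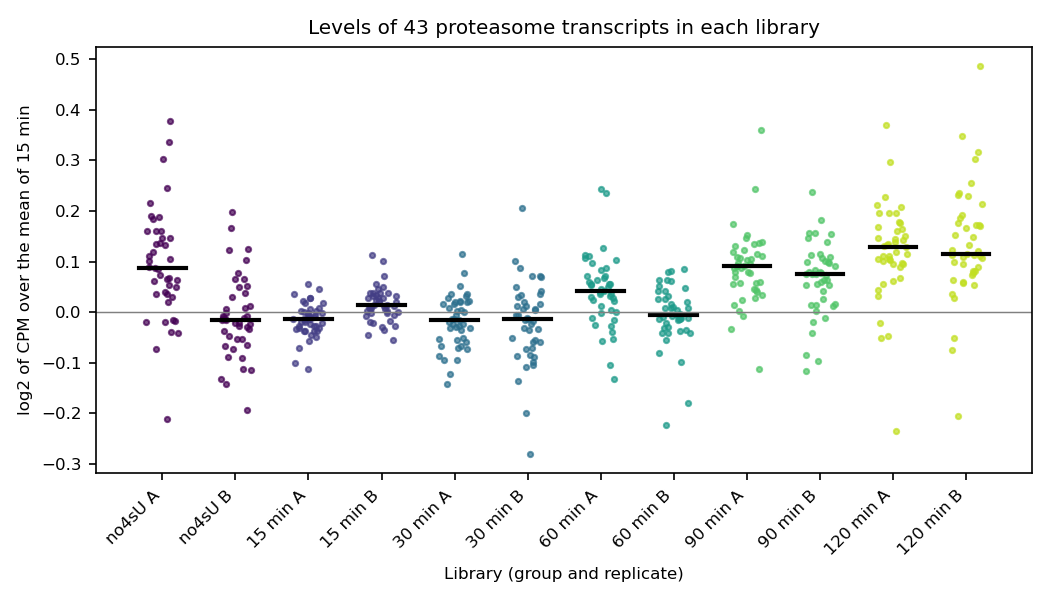
Level of each of the 43 measured proteasome genes in the 12 libraries, as log2 of its CPM over its mean at 15 min (vertical axis), with 1 dot per gene and a bar at the median. The bars of the 120 min libraries are at 0.13 and 0.11, that of no4sU replicate A is at 0.086 and that of no4sU replicate B at -0.016.

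Median fold changes were higher at lower NTR, among proteasome genes and among all genes. The 27 proteasome genes with an NTR between 10 and 20% had a median log2 fold change of 0.14 at 120 against 15 min, and all 1805 genes in that range one of 0.16, with quartiles at 0.10 and 0.22. Of the 43 genes 25 lay between the quartiles of all genes in their range of NTR. That is near the share of all genes that quartiles enclose by definition. Between 20 and 30% the 9 proteasome genes had 0.11 and all 1624 genes 0.073, and between 30 and 40% the 4 proteasome genes had 0.046 and all 1286 genes 0.0023. Across the 43 genes Spearman's rho of NTR with fold change was -0.37, and across 9065 genes -0.76, as a description over genes that share the same libraries. When new RNA was rescaled in each labelled library so that the rho of its NTR with its change against no4sU was 0 (an implied loss of 30.5 and 32.1% at 120 min and of -29.7 and -2.82% at 15 min, where the negative values scale new RNA down), 0 of the 45 genes passed edgeR's test (4 at an unadjusted p below 0.05), against 2.23% of all genes, and the median was 0.023. The calls also rested on single libraries: by edgeR 0 passed without 15 min replicate A and 0 without 120 min replicate B (8 and 9 at an unadjusted p below 0.05), against 5.62% and 6.03% of all genes. Without 15 min replicate B 3 passed and without 120 min replicate A 4, against 8.86% and 8.7% of all genes. A fit of the 2 groups alone called 21 (46.7%, against 33.6% of all genes), and DESeq2 called 5 (10.6%, against 8.51% of all genes). Scaling by library size alone called 4 higher and 1, Psmg2, lower, against 3.68% and 16.1% of all genes.

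**Figure D5:**
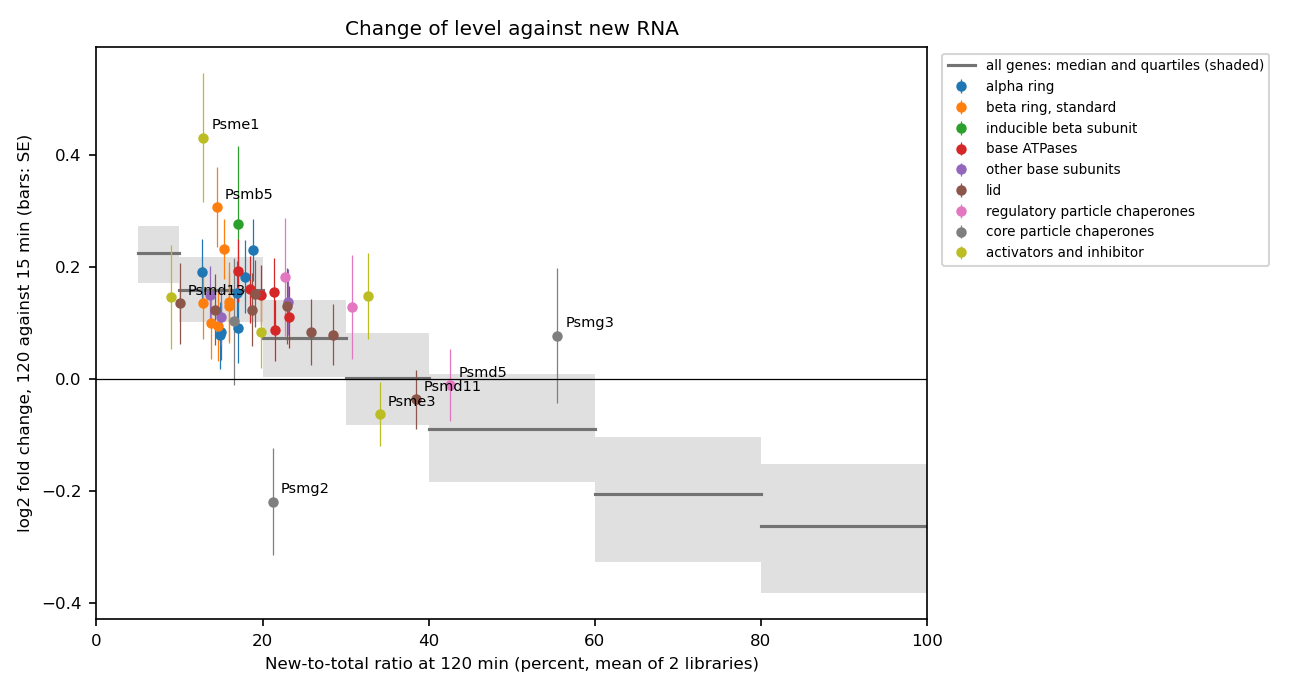
Log2 fold change of 120 against 15 min (vertical axis, bars are the SE from edgeR) against the mean NTR at 120 min (horizontal axis, percent) for 43 proteasome genes, coloured by role. Grey bars and shading are the median and quartiles of all genes in each range of NTR, and 25 of the 43 proteasome genes lie within it. Psme1 and Psmb5 lie above it and Psmg2 below it.

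Each level was split into its new part (NTR times CPM) and the remainder. Where a level is steady, the remainder falls by construction in genes with a high NTR, so that contrast is a description. The pre-existing RNA of Psmb5 was 88.6 ± 1.82 CPM at 15 min and 94.1 ± 0.984 at 120 min, and that of Psmd2 636 ± 13.1 and 611 ± 14.1 (SD, n = 2). For Psmd11 it was 220.5 ± 5.91 and 134 ± 2.42 CPM, and for Psme3 198 ± 10.1 and 127 ± 4.396. Of the 43 genes 37 had less pre-existing RNA at 120 than at 15 min, a share of 86.0% against 89.9% of 8933 genes, and the median log2 ratio was -0.15 against -0.61. The new RNA of Psmd11 reached 83.7 ± 0.7103 CPM and that of Psmb5 15.9 ± 0.0302. Per kilobase, new RNA at 120 min ran over the 31 subunits of the rings, base and lid from 5.76 (Psmd13) to 47.5 CPM per kilobase (Psmd7), a range of 8.25-fold, wider than the 4.72-fold range of their total levels. All of these are products of scaled counts, which sum to a fixed total, so a remainder that is level does not show that no RNA was lost.

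Against the unlabelled cells edgeR's test called no proteasome gene at any duration. By edgeR 0 of 45 passed at 15, 30, 60, 90 and 120 min, with 2, 7, 2, 3 and 11 at an unadjusted p below 0.05, and by DESeq2 0, 0, 0, 0 and 1 (Psmd1, a large base scaffold), with 0, 1, 1, 3 and 8 at an unadjusted p below 0.05. Over all genes the shares that passed by edgeR were 0.0%, 0.0%, 0.0173%, 1.39% and 14.2% (5.43% higher and 8.78% lower at 120 min). The median log2 fold changes of the 45 genes were -0.040, -0.074, -0.017, 0.033 and 0.087. The 5 comparisons share the same 2 no4sU libraries. At 120 min the largest values among subunits of the base were those of Psmc4 (log2 fold change 0.18 ± 0.060 (SE), adjusted p = 0.0537, edgeR) and Psmc3 (log2 fold change 0.17 ± 0.056 (SE), adjusted p = 0.0503, edgeR), just short of the threshold, and Psmd1 had 0.15 ± 0.049 (edgeR adjusted p = 0.0511). Both 120 min libraries were above both no4sU libraries for 21 of 45 genes, against 24.9% of all genes, and below them for 1, Psmg2, against 26.7%. At 90 min 12 were above (19.9% of all genes) and 3 below (19.9%), namely Psmd10, Psme2b and Psmf1. These results rested on which no4sU library was kept: at 120 min edgeR called 20 without no4sU replicate A and 3 without replicate B, all higher, against 14.2% and 8.84% of all genes called higher. At 30 min it called 0 without A (3 at an unadjusted p below 0.05), against 0.29% of all genes, and 11 without B, 10 of them lower, against 4.01% of all genes called lower. At 15 min edgeR called 0 without A (4 at an unadjusted p below 0.05) and 6 without B, against 0.461% and 11.4% of all genes. The counts without A and without B were 1 and 5 at 60 min (1.84% and 10.4% of all genes) and 3 and 2 at 90 min (12.3% and 10.4%). The medians moved too: without A they were 0.018, -0.00017, 0.035, 0.074 and 0.14 from the shortest to the longest duration, and without B -0.089, -0.12, -0.067, -0.036 and 0.024. With scaling by library size alone the median was -0.019 at 90 min and 0.021 at 120 min. At 120 min edgeR also called 1 with a replicate block and 3 with no filter on low counts, against 15% and 11.6% of all genes.

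Proteasome transcripts are short, and their features went with the NTR only in part. The median length of the 3′ UTR was 213 bases in the 43 genes and 1104 in 9056 genes. Spearman's rho of 3′ UTR length with the NTR at 120 min was 0.38 across the 43 genes, 0.043 across the 31 subunits of the rings, base and lid, and 0.29 across all genes, as a description over genes of the same libraries. The 9 genes with a 3′ UTR of at least 900 bases, a limit chosen after seeing the values, had a median NTR of 30.8%, and the other 34 one of 17.1%. They include Psmd11, Psmd5, Psmd9, Psme3 and Psmf1, and also Psma2, Psma3, Psmb1 and Psmc6, whose NTR was between 14.9 and 21.5%. Psmg3, with the highest NTR, has a 3′ UTR of 329 bases. The share of U in the transcript had a rho of 0.084 with the NTR. In GENCODE M21 (GRCm38), 14 of the 47 genes overlap exons of another gene, 11 of them on the other strand, among them Psma4, Psmb7, Psmc3, Psmd13 and Psme1, and Psmg3 overlaps one on its own strand. Strand use in counting is not stated, so reads of a gene and its partner on the other strand cannot be told apart.

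Genes of the complex lie on many chromosomes, and 43 promoters of 40 of the 47 genes were found in RefSeq's table (GRCm38.p6, 250 bases before to 50 after each start). The motif CCGGAAG of ETS factors, on either strand, was in 15 of the 43 (34.9%), against 19.8% of 9237 promoters of genes with at least 100 reads and 8.86% of all 32851. CCAAT was in 13 (30.2%, against 37.9% and 37.4%), and TGACNNNGC, the core of the antioxidant response element, in 6 (13.95%, against 14.53% and 12.39%). The 4 stretches are printed from RefSeq, 5′ to 3′ on the gene's strand and ending before both the RefSeq and the GENCODE start, with the motif in capitals: those of Psmb5 and Psmd2, which rose at 120 against 15 min, of Psmb6, the other catalytic subunit with TGACNNNGC, and of Psmd11, with the highest NTR of the 31 genes of the rings, base and lid. These stretches were chosen for holding a motif. Of the other genes that passed, Psma4, Psma7 and Psme1 had neither TGACNNNGC nor CCGGAAG. No promoter was found for Psmb1 and Psmc3, nor for the remaining catalytic subunit, Psmb7. A match of letters is a description and not a binding site.
Psmb5: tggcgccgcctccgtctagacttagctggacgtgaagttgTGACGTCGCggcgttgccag
Psmb6: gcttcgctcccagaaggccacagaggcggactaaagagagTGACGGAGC
Psmd2: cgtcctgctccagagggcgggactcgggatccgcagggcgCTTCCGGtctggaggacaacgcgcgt
Psmd11: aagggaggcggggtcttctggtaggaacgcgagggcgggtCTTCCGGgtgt
The stretch of Psmb5 is chr14:54618023-54618082, minus strand, with TGACNNNGC starting 20 bases before the GENCODE gene, which is at chr14:54614119-54618022, and 47 bases before the RefSeq start, which lies inside it. That of Psmb6 is chr11:70525308-70525356, plus strand, with the motif starting 9 bases before the RefSeq start. That of Psmd2 is chr16:20651586-20651651, plus strand, where CCGGAAG is read on the other strand 26 bases before the start of chr16:20651652-20663414. That of Psmd11 is chr11:80428564-80428614, plus strand, also with the motif on the other strand, 11 bases before the start of chr11:80428615-80473248. Slow and fast transcripts of the complex thus both had the ETS letters in this window.

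Other genes of the pathway, which the symbol rule does not take, were read from a list of 21, of which 20 were in the table. Their NTR at 120 min ran from 10.96 to 93.1% with a median of 27.1%, and 13 of 20 were below the median of all genes. Sem1, a small lid subunit, and Pomp, the maturation factor of the core particle, were within the range of the subunits, with 12.3% and 9.56% and 13.7% and 14.2% in A and B. Adrm1, a ubiquitin receptor of the regulatory particle, had 49.1% and 49.4%, and Nfe2l1, the transcription factor that raises proteasome genes when the complex is inhibited, had 43.6% and 41.4%. The fastest were Zfand5, a ubiquitin-binding activator of the complex, at 94.7% and 91.6%, Ddi2, the protease that cleaves Nfe2l1, at 74.4% and 68.7%, and Akirin2, which brings proteasomes into the nucleus, at 69.6% and 68.5%.

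At 120 against 15 min 2 of the 20 rose and 3 fell by edgeR, against 7.93% of all genes called higher and 11.3% lower. Pomp was at 112 and 107 CPM at 15 min and 123 and 134 at 120 min (log2 fold change 0.23 ± 0.067 (SE), adjusted p = 0.0204, edgeR), and Sem1 at 104 and 105 and 121 and 132 (log2 fold change 0.28 ± 0.067 (SE), adjusted p = 0.007801, edgeR). Zfand5 was at 132 and 138 CPM and then at 90.8 and 101 (log2 fold change -0.49 ± 0.079 (SE), adjusted p = 0.000422, edgeR). Ddi2 and Akirin2 fell with log2 fold changes of -0.32 ± 0.069 and -0.37 ± 0.083 (SE). In these 5 genes the libraries of 15 and 120 min did not overlap, as in 33.3% (higher) and 32.7% (lower) of all genes. Against no4sU at 120 min, where 5.43% of all genes were called higher and 8.78% lower, the same 3 fell (Zfand5 -0.51 ± 0.079, Ddi2 -0.24 ± 0.069, Akirin2 -0.37 ± 0.082), and Rad23b and Ubqln2, shuttle factors that carry ubiquitinated proteins to the proteasome, rose by 0.15 ± 0.049 and 0.18 ± 0.056 (log2, SE, edgeR adjusted p = 0.0437 and 0.0357).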

How the data were processed

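Total RNA of NIH-3T3 cells was sequenced in 12 SLAM-seq libraries, and the members and lists used here were chosen with earlier results of these data known. The authors deposited 1 table with, per gene and library, estimated counts (20.4% of values not whole at a tolerance of 1e-06), the NTR as a fraction with its mode, mean and 90% interval, scores of its fitted distribution (not used), and a gene length. Per the submitters' processing notes, cutadapt, Bowtie2 2.3.0 and STAR 2.7.10b were used; of the counting tool, build, annotation and strand setting nothing is given there. Counts were rounded, genes with low counts were removed by filterByExpr, and 11564 genes were fitted over all 6 groups with edgeR 4.0.16 (TMM factors 0.970 to 1.02, quasi-likelihood test, common biological variation of 4.44%), with the SE taken as the log2 fold change divided by the square root of F. Each p-value was adjusted over all genes by Benjamini-Hochberg, with a threshold of 0.05. Apparent loss rates, from NTR values between 0.01 and 0.99, were tested on the log2 scale with limma 3.58.1 (R 4.3.3). Genes needed a mean of 100 reads for measures of NTR. Given with full values, by rule, are the genes with the lowest and highest NTR of each role at 120 min, the genes that passed at 120 min and the catalytic and inducible subunits; others, such as Psmc4, Psmd7, Psmg2 and the genes with the lowest or highest level, were named after their values were seen. DESeq2 1.42.0 was an alternative; other alternatives changed the filter, scaling, NTR estimate, replicate block and libraries. Exact permutation of 2 against 2 libraries cannot go below p = 0.333, so none was run. Psma8 and Psmb11 were not analysed here.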

Additional observations from a re-analysis of the deposited data

How the results depend on the processing

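Only a part of the single-gene results was followed under the alternatives. Of these, 1087 kept their direction and their side of the threshold, 44 passed under an alternative alone, 74 lost their call and 0 changed direction after a call. Those counts do not hold every call gained or lost, and the calls given elsewhere are over all tested proteasome genes. At 120 min against no4sU edgeR called 3 proteasome genes with no filter on low counts and DESeq2 called 1, against 11.6% and 6.2% of all genes. At 120 against 15 min a fit of the 2 groups alone called 21, against 33.6% of all genes. With the new part rescaled by the implied loss 0 passed, against 2.23% of all genes. The median log2 fold change was then 0.023, and 0.078 with scaling by library size alone. Against no4sU at 120 min that median was -0.014 with the new part rescaled, so it changed sign. For the loss rate, 8 were called among genes with at least 1000 reads, against 47.4% of all such genes. The posterior mean in place of the mode gave a median NTR of 1.015% at 15 min and 3.24% at 30 min, and genes with at least 1000 reads gave 2.66% at 30 min and a half-life of 757 min. With all NTR above 0, the half-life at 15 min was 1627 min. The cause of these shifts was not tested. Leaving out 1 library in turn, the calls ranged from 0 to 6, 0 to 11, 0 to 5, 0 to 3 and 0 to 20 against no4sU at 15, 30, 60, 90 and 120 min, from 0 to 4 at 120 against 15 min and from 0 to 2 for the loss rate. In each of these comparisons the share of all genes called also moved with the library left out. The ranges alone therefore do not set proteasome genes apart. The labels do not say whether the replicate letters pair samples across groups. Correlations of the deviations of A between groups ran from -0.129 to 0.150. With the replicate block, 1 gene was called at 120 min against no4sU and 7 at 120 against 15 min (15% and 20% of all genes). For the loss rate the block gave 0 calls, against 22.4% of all genes. Genes with few reads, such as Psmb10 and Psmg3, had wide 90% intervals of the NTR. At 15 min the median NTR was 0.595%, and 0.6175% among proteasome genes with at least 1000 reads. What limits the NTR at 15 min was not tested.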
